A study of Mus musculus with 2 samples.

Results

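The gut peptide hormone genes are *Gip*, *Gcg*, *Cck*, *Sct*, *Pyy*, *Ghrl*, *Nts*, *Tac1* and *Sst*, the precursors of the main secreted peptides of the intestinal endocrine cells. They were taken by name, 9 genes in all, of which 8 were among the 16665 genes listed in the count tables. Their transcripts were followed in single cells of mouse enteroids, which are cultures of intestinal epithelium grown in a gel from crypts. Of the 9 genes, 8 were described and *Sst* was not analysed here. The study asked what loss of *Taf4*, which encodes a component of the transcription initiation complex TFIID, does to the cell populations of the enteroid. The crypts came from the ileum of mice aged 4 months on a C57Bl6/129sv background. The *Taf4* KO enteroids carried *Taf4* lox/lox and VilCreERT2, a tamoxifen-inducible recombinase under the villin promoter, which is active in intestinal epithelium. They had received 1 µM (Z)-4-hydroxytamoxifen (4-OHT) in ethanol for 3 days. The control is labelled WT and ethanol-treated, whereas the methods of the study describe control *Taf4* lox/lox enteroids without the recombinase that also received 4-OHT. Which of these held for the control library could not be told from the sources used here. Live cells were sorted by flow cytometry and captured with the 10X Chromium 3′ system. There was 1 library of each condition and so no replicate, and no value below carries a test between conditions. Intervals are 95% intervals for counting error only.

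Enteroendocrine cells are scattered secretory cells of the gut epithelium that release peptides into the blood or onto nearby nerves when they sense nutrients or other cues in the lumen. Each peptide is cut from a longer precursor, by the convertase *Pcsk1* and the carboxypeptidase *Cpe* among others, and is stored with granins such as *Chga*, *Chgb* and *Scg2* in dense-core granules. *Gip* encodes the incretin of K cells, and *Gcg* encodes proglucagon, from which L cells make GLP-1, GLP-2 and other peptides. *Cck* encodes cholecystokinin, which contracts the gallbladder and stimulates pancreatic enzyme release, and *Sct* encodes secretin, which stimulates bicarbonate secretion. *Pyy* encodes peptide YY of the ileal brake, *Nts* encodes neurotensin, and *Ghrl* encodes ghrelin, which *Mboat4* acylates. *Tac1* encodes substance P and is typical of serotonin-making enterochromaffin cells, in which *Tph1* is the first enzyme of serotonin synthesis. Enteroendocrine cells often make several of these peptides at a time, and the mixture is known to vary with the place in the gut and with the age of the cell.

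TFIID binds core promoters through TBP, the protein that contacts the TATA box, so the start regions of the hormone genes are shown. Among the 8 members, *Gip*, *Gcg*, *Sct* and *Pyy* held TATAA on the sense strand between 40 and 20 bases before the start site in the RefSeq promoter table (build GRCm38.p6), beginning 25, 24, 28 and 27 bases before it. The share over all 27025 promoters of that table was 3.70% (1000 promoters). For *Gip* and *Sct* the start site of the promoter table is not the gene start given below. The promoter bases of *Gip* end at 96024544, past its gene start at 96024532. Those of *Sct* (minus strand) begin at 141279134, inside the gene, whose start is at 141279174. Their TATAA positions hold only for the start sites of the promoter table. TGACG, which can be part of a cAMP response element, was found on either strand within the 250 bases before the start in 3 members (*Cck*, *Nts* and *Tac1*) and in 17.8% of all promoters. CAGATG, a form of the E-box, was found there in 4 members (*Gcg*, *Cck*, *Sct* and *Tac1*) and in 14.5% of all promoters. These motifs do not overlap in letters and were chosen after the sequences were seen. A match describes the letters and shows no bound factor. *Gip*, *Gcg* and *Pyy* are printed below as members with TATAA, and *Cck* and *Tac1* as members without it that carry the other motifs, each as the 120 bases before the start site. Capitals mark the motifs, with CGTCA as the reverse strand of TGACG, and some matches lie farther from the start than the printed bases.
*Gip*, chr11:96024425-96024544, plus strand: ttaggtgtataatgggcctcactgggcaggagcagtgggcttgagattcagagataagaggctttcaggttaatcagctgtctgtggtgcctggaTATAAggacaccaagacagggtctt
*Gcg*, chr2:62483654-62483773, minus strand: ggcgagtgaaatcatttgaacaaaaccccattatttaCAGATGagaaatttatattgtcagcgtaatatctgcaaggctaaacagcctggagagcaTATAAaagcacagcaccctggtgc
*Pyy*, chr11:102107833-102107952, minus strand: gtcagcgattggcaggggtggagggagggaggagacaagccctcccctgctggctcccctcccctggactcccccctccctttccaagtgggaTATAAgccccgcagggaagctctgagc
*Cck*, chr9:121495695-121495814, minus strand: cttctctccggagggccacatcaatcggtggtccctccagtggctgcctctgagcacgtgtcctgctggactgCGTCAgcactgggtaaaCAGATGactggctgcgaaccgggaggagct
*Tac1*, chr6:7554941-7555060, plus strand: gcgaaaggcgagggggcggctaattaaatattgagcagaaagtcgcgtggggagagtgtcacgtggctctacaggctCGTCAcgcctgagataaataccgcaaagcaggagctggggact

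The libraries held 2563 control cells with 39947009 UMIs, the counts of individual captured transcripts, and 1811 cells with 24990128 UMIs in the library labelled *Taf4* KO. The median cell had 16749 UMIs in the control and 2254 in the library labelled *Taf4* KO, in which 49.1% of cells had under 2000 UMIs against 17.3% in the control. Cells of at least 2000 UMIs, called deep cells below, numbered 2119 and 921, had medians of 18715 and 29103 UMIs, and held 98.8% and 96.9% of all UMIs. *Taf4* itself was not lower in the library labelled *Taf4* KO, with 278 UMIs (0.0696 per 10000 UMIs of the library) in the control against 236 (0.0944) in the other. The files give no exon-level counts, so 3′ tags outside the deleted part cannot check the deletion. Only 2 cell barcodes occurred in both libraries. The median gene was higher by 0.16 (log2) in the library labelled *Taf4* KO over the 10002 genes with at least 200 UMIs in both libraries together.

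Some hormone barcodes resembled each other so closely that they may not be separate cells, and whether they are was not tested. Among the deep barcodes with a hormone, some were alike gene by gene within sampling noise, with a chi-square per degree of freedom under 1.5 against a median of 9.42 over all 12561 pairs in the control and 12.4 over 6786 pairs in the library labelled *Taf4* KO. This limit was chosen after seeing the data. Barcodes linked by such a pair, directly or through a shared partner, were joined into a set, within which the highest value of any pair was 1.56. The control held 2 such sets, of 12 and 2 barcodes, and the library labelled *Taf4* KO held 4, of 7, 4, 3 and 2 barcodes. All 12 barcodes of the control set carried *Cck* at 7 to 23 UMIs. The 7 barcodes of the other library carried *Gcg* at 38 to 45 UMIs and *Cck* at 39 to 77 UMIs. Counted once per set, hormone barcodes numbered 147 rather than 159 in the control and 105 rather than 117 in the library labelled *Taf4* KO. Counts with each set counted once by its deepest barcode are given beside the main cell counts below.

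Of the 8 members, 7 were above 2-fold higher in the library labelled *Taf4* KO, where 5.52% of all genes were, and 0 were above 2-fold lower, where 3.48% of all genes were. The exception was *Sct*. These levels are UMIs summed over cells, so more cells of a type and more RNA per cell cannot be told apart. With each set of alike barcodes counted once, 5 members were above 2-fold, since *Gcg* and *Ghrl* lay at log2 ratios of 0.97 and 0.99. Because 3′ tags are counted once per transcript whatever its length, the genes can also be ordered within a library. In the control the order ran from *Cck* through *Gcg*, *Nts*, *Sct*, *Pyy*, *Ghrl* and *Tac1* to *Gip*, with no overlap between the intervals of neighbours. In the library labelled *Taf4* KO it ran from *Cck* through *Gcg*, *Nts*, *Pyy*, *Tac1*, *Sct* and *Gip* to *Ghrl*, and there the intervals of *Gip* overlapped those of *Sct* and *Ghrl*.

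**Figure D1:**
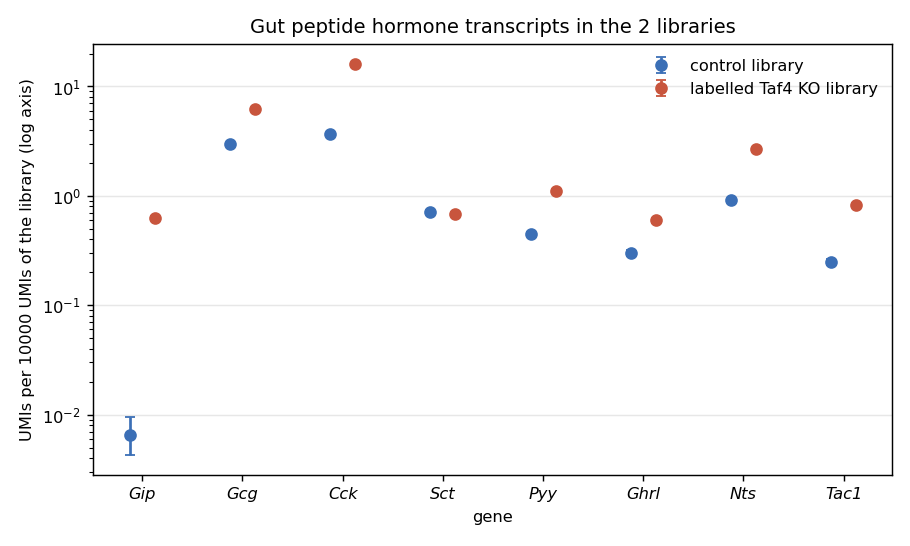
UMIs per 10000 UMIs of the library (log axis) for each hormone gene in the control (blue) and in the library labelled *Taf4* KO (red), with exact Poisson 95% intervals for counting error, 1 library each. *Cck* was highest in both libraries, at 3.65 and 16.0, and *Gip* lay lowest in the control at 0.0065.

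*Gip* (GRCm38 chromosome 11, 96024532 to 96030831) had 26 UMIs in the control and 1564 in the library labelled *Taf4* KO. Its level was 0.0065 UMIs per 10000 (0.0043 to 0.0095) in the control against 0.626 (0.595 to 0.658) in the other, a log2 ratio of 6.59 (6.03 to 7.21). Nearly all of these UMIs lay in a handful of barcodes. In the control 1 cell held 23 *Gip* UMIs and 3 barcodes held 1 each. In the library labelled *Taf4* KO 5 barcodes held 908, 269, 266, 69 and 32, and 3 of them, those with 69 to 269, formed 1 set of alike barcodes (1.07 to 1.51 per degree of freedom). With these counted once the library had 3 *Gip* cells against 1 in the control, and the log2 ratio was 6.23.

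*Gcg* (chromosome 2, 62474530 to 62483653) stood at 3.01 UMIs per 10000 (2.95 to 3.06) in the control against 6.19 (6.09 to 6.29) in the library labelled *Taf4* KO, a log2 ratio of 1.04 (1.01 to 1.08). The cells with the most *Gcg* held 2906, 2173 and 1440 UMIs in the control and 3568, 3187 and 2149 in the other library. In the top control cell *Gcg* made up 18.7% of all 15561 UMIs. At least 3 UMIs of *Gcg* were found in 66 control barcodes and in 51 of the library labelled *Taf4* KO, but only in 20 and 24 deep cells. The shallow *Gcg* barcodes are described below.

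*Cck* (chromosome 9, 121489824 to 121495694) was the most abundant hormone transcript, with 14594 UMIs in the control and 40083 in the library labelled *Taf4* KO. Its level was 3.65 UMIs per 10000 (3.59 to 3.71) against 16.0 (15.9 to 16.2), a log2 ratio of 2.13 (2.11 to 2.16). The highest control cells held 2626, 1776 and 1440 *Cck* UMIs, and the highest cells of the other library 8776, 3845 and 3506. The cell with 8776 *Cck* UMIs had 30866 UMIs in all, of which *Cck* was 28.4%, and the 8 hormone genes together 40.2%. Without the highest cell of each library the ratio was 2.07.

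*Sct* (chromosome 7, 141278329 to 141279174) differed little, at 0.717 UMIs per 10000 (0.691 to 0.743) in the control against 0.683 (0.651 to 0.716) in the library labelled *Taf4* KO. Its log2 ratio was -0.07 (-0.16 to 0.02). The highest cells held 842, 386 and 253 *Sct* UMIs in the control and 383, 204 and 144 in the other library. Most *Sct* cells held few UMIs, with 77 of 102 control barcodes and 38 of 58 barcodes of the other library between 3 and 9.

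*Pyy* (chromosome 11, 102106676 to 102107832) was at 0.448 UMIs per 10000 (0.427 to 0.469) in the control against 1.11 (1.07 to 1.15) in the library labelled *Taf4* KO, a log2 ratio of 1.31 (1.22 to 1.40). A single cell with 1673 UMIs held 60.4% of all *Pyy* UMIs of the latter, and the next cells held 194 and 193. In the control the highest cells held 498, 414 and 181. Without the highest cell of each library the log2 ratio was 0.45.

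*Ghrl* (chromosome 6, 113716119 to 113719911) was at 0.30 UMIs per 10000 (0.283 to 0.317) in the control against 0.600 (0.570 to 0.631) in the library labelled *Taf4* KO. The log2 ratio of 1.00 (0.89 to 1.11) lay only just past 2-fold. As with *Pyy*, 1 cell weighed heavily in the library labelled *Taf4* KO, where it held 708 UMIs or 47.2% of the total, followed by cells with 137 and 112. The control cells with the most *Ghrl* held 234, 164 and 111 UMIs. The ratio was 0.39 without the highest cell of each library.

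*Nts* (chromosome 10, 102481756 to 102490418) was the most concentrated of the abundant members. Its level was 0.913 UMIs per 10000 (0.883 to 0.943) in the control against 2.69 (2.62 to 2.75) in the library labelled *Taf4* KO, a log2 ratio of 1.56 (1.5 to 1.62). The 7 control barcodes with at least 3 UMIs held 2356, 482, 245, 237, 236, 6 and 3. The 8 barcodes of the other library held 4779, 1334, 445, 34, 14, 8, 8 and 5. The top cell thus carried 64.6% of *Nts* UMIs in the control and 71.2% in the other, and without it the log2 ratio was 1.26.

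*Tac1* (chromosome 6, 7555061 to 7562978) was spread over more cells. Its level was 0.248 UMIs per 10000 (0.233 to 0.264) in the control against 0.825 (0.790 to 0.862) in the library labelled *Taf4* KO, a log2 ratio of 1.73 (1.62 to 1.84). The highest cells held 85, 75 and 74 UMIs in the control and 185, 176 and 146 in the other library, so no cell held over 8.97% of the total. The ratio stayed at 1.73 without the highest cell of each library.

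Hormone transcripts were thus carried by very few cells. The 10 cells with the most UMIs of a gene held 58.1% to 97.9% of its UMIs in the control over the 7 members with at least 100 UMIs, and 50.4% to 99.2% over all 8 in the library labelled *Taf4* KO. Over all genes with at least 100 UMIs the median was 5.23% (10134 genes) and 8.94% (9611 genes), with a 95th percentile of 15.7% and 23.8%. All members measured in this way lay above that percentile in their library. The Poisson intervals treat each UMI as separate and so understate the error of these levels.

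**Figure D2:**
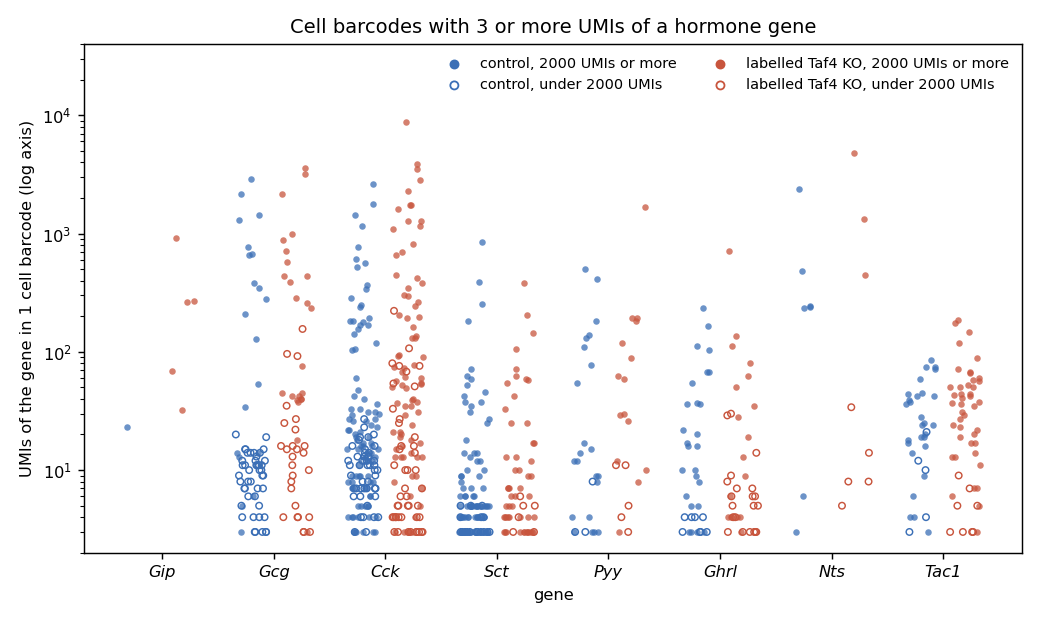
Every cell barcode with at least 3 UMIs of a hormone gene, with the UMIs of that gene on a log axis, for the control (blue) and the library labelled *Taf4* KO (red); filled points are barcodes of 2000 UMIs or more and open points are shallower ones. The 46 shallow control barcodes with *Gcg* lay at 3 to 20 UMIs, a range that also held 6 of the 20 deep *Gcg* cells, which reached 2906.

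At least 3 UMIs of at least 1 hormone were found in 219 control barcodes (8.54%, 7.49 to 9.69) and in 182 of the library labelled *Taf4* KO (10.0%, 8.70 to 11.5). The difference was 1.51 percentage points (-0.27 to 3.32), and with 2 UMIs as the threshold it was 3.84 points (1.82 to 5.90). Among deep cells the shares were 7.50% (159 of 2119) and 12.7% (117 of 921), a difference of 5.20 points (2.79 to 7.77). With these cells thinned to 2000 UMIs each, the shares were 3.73% (79) and 8.25% (76), a difference of 4.52 points (2.61 to 6.64). Counted once per set, the deep-cell difference was 4.57 points (2.25 to 7.07) and the thinned one 3.43 points (1.62 to 5.44). In cells with at least 5 UMIs of the enterocyte gene *Apoa1* per 10000, which should lack hormones, 2 of 132 control cells (1.52%, median depth 21649.5 UMIs) and 0 of 124 cells of the other library (40982.5 UMIs) had at least 3 UMIs of a hormone, which in both control cells were *Cck* and *Tac1*. A count of 0 of 124 allows a share of up to 2.42% with a floor of 3 counts, and its exact upper limit is 2.93%.

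By gene, the thinned deep cells differed most in *Cck*, *Tac1* and *Gcg*. *Cck* was found in 54 control cells (2.55%) and 61 cells of the library labelled *Taf4* KO (6.62%), a difference of 4.07 points (2.37 to 5.98). *Tac1* was found in 21 (0.991%) and 36 (3.91%), a difference of 2.92 points (1.65 to 4.43). *Gcg* was found in 17 (0.802%) and 22 (2.39%), a difference of 1.59 points (0.58 to 2.84). Before thinning, deep cells with *Cck* numbered 95 (4.48%) and 81 (8.79%), those with *Tac1* 28 (1.32%) and 43 (4.67%), and those with *Gcg* 20 (0.944%) and 24 (2.61%). Counted once per set of alike barcodes, *Gcg* was found in 20 and 17 deep cells, *Cck* in 84 and 69, and *Tac1* in 27 and 40. The thinned difference was then 2.92 points (1.35 to 4.71) for *Cck* and 2.63 points (1.40 to 4.11) for *Tac1*. For *Gcg* it was 0.84 points (-0.03 to 1.95), an interval that spanned 0. With shallow barcodes included, *Cck* was found in 146 control barcodes (5.70%) and 127 of the other library (7.01%). That difference was 1.32 points (-0.17 to 2.86), an interval that spanned 0. For *Tac1* it was 1.53 points (0.65 to 2.49), and for *Gcg* 0.24 points (-0.75 to 1.29).

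For the other hormones the differences after thinning were smaller. *Sct* was found in 85 deep control cells (4.01%) and 52 cells of the library labelled *Taf4* KO (5.65%), and after thinning in 25 (1.18%) and 14 (1.52%), a difference of 0.34 points (-0.54 to 1.44). Counted once per set, the deep *Sct* cells were 76 and 49 and the thinned ones 24 and 11. *Pyy* was found in 22 and 15 deep cells and *Ghrl* in 26 and 18. After thinning *Pyy* remained in 12 and 11 cells, a difference of 0.63 points (-0.10 to 1.60), and *Ghrl* in 14 and 8, a difference of 0.21 points (-0.46 to 1.10). *Nts* was found in 7 and 3 deep cells before thinning and in 5 and 3 after it. With every barcode counted, the thinned and deep-cell intervals of *Sct*, *Pyy*, *Ghrl* and *Nts* spanned 0. Counted once per set, the deep *Sct* difference was 1.78 points (0.15 to 3.62), an interval above 0. With shallow barcodes included, the *Ghrl* difference was 0.83 points (0.02 to 1.71), also above 0, and those of *Sct*, *Pyy* and *Nts* spanned 0. The *Gip* cells were 0 and 4 after thinning, or 0 and 2 counted once per set.

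*Gcg* and *Cck* transcripts also appeared together in shallow barcodes. Of the 66 control barcodes with *Gcg*, 46 were among the 444 barcodes under 2000 UMIs. These 46 held 3 to 20 *Gcg* UMIs each (median 9.5) at a median of 847 UMIs in all, and 43 of them also held at least 3 UMIs of *Cck*. Their *Gcg* level was 106 UMIs per 10000, against 0.605 in the other shallow control barcodes. Summed over them, *Gcg* had 428 and *Cck* 461 UMIs. Their level of the granin *Chgb* was 2.24 per 10000, below the 6.25 of the other shallow control barcodes and the 10.2 of deep control cells led by *Gcg*. In the library labelled *Taf4* KO 27 of 890 shallow barcodes had *Gcg*, with a median of 13 and a maximum of 156 UMIs, and 23 of the 27 also had *Cck*. There the *Chgb* level was 11.2 per 10000 against 7.23 in the other shallow barcodes. These comparison levels include a few shallow barcodes with at least 3 *Tac1* UMIs, 5 in the control and 8 in the other library. Their *Chgb* levels were 179.5 and 141.3, against 3.13 and 6.04 in the shallow barcodes without *Tac1*. What the shallow barcodes with *Gcg* are was not tested.

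Cells with several hormones were common in both libraries. Of the deep hormone cells, 80 of 159 in the control (50.3%, 42.3 to 58.3) and 70 of 117 in the library labelled *Taf4* KO (59.8%, 50.4 to 68.8) held at least 3 UMIs of 2 or more members. The difference of 9.51 points had an interval from -2.89 to 21.5. After thinning the shares were 57.0% (45 of 79) and 71.1% (54 of 76). With alike barcodes counted once the unthinned difference was 6.94 points. The largest number of members in a cell was 5 in 3 control cells and 6 in 3 cells of the library labelled *Taf4* KO.

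*Cck* was the most common partner in both libraries. Of the 28 possible pairs, 21 occurred in at least 1 deep control cell and 25 in the library labelled *Taf4* KO. *Cck* was found in 16 of 20 *Gcg* cells of the control (80.0%, 56.3 to 94.3) and in 21 of 24 of the other library (87.5%, 67.6 to 97.3), whereas *Gcg* was found in 16.8% and 25.9% of *Cck* cells, or 19.0% and 20.3% counted once per set. It was found in 25 of 28 (89.3%) and 40 of 43 (93.0%) *Tac1* cells, and *Tac1* in 26.3% (17.8 to 36.4) and 49.4% (38.1 to 60.7) of *Cck* cells. Thinned, *Tac1* was found in 31.5% (19.5 to 45.6) and 44.3% (31.5 to 57.6) of *Cck* cells, intervals that overlap. *Cck* was also found in 19 of 22 and all 15 *Pyy* cells. Thinned, *Gcg* cells with *Cck* were 13 of 17 and 21 of 22, and *Tac1* cells with *Cck* 17 of 21 and 27 of 36. With alike barcodes counted once, *Gcg* cells with *Cck* were 16 of 20 and 14 of 17, and *Tac1* cells with *Cck* 25 of 27 and 37 of 40.

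*Sct* was the other frequent partner before thinning. It shared 41 control cells and 27 cells of the library labelled *Taf4* KO with *Cck*, or 32 and 24 counted once per set. It was found in 15 of 20 and 14 of 24 *Gcg* cells, in 14 of 22 and 12 of 15 *Pyy* cells, and in 10 of 26 and 11 of 18 *Ghrl* cells. *Gcg* and *Pyy* shared 8 and 9 cells. *Gcg* and *Tac1* shared 1 control cell and 5 cells of the library labelled *Taf4* KO, and *Ghrl* and *Tac1* shared 2 and 1. *Nts* was paired with *Gcg* in 4 of 7 cells and in all 3. Every *Gip* cell, 1 in the control and 5 in the other library (3 counted once per set), also held *Cck* and *Sct*, and none held *Ghrl* or *Nts*. *Ghrl* cells held *Cck* in 10 of 26 and 10 of 18 cases, and *Gcg* in 4 of 26 (15.4%, 4.36 to 34.9) and 9 of 18 (interval 26.0% to 74.0%). After thinning, *Sct* shared 15 and 14 cells with *Cck* and was found in 12 of 17 and 7 of 22 *Gcg* cells. It was then found in 4 of 12 and 4 of 11 *Pyy* cells, and in 4 of 14 and 4 of 8 *Ghrl* cells. Thinned *Nts* cells held *Gcg* in 4 of 5 and 1 of 3 cases, and thinned *Ghrl* cells held it in 2 of 14 and 5 of 8. *Gcg* and *Tac1* then shared 1 and 2 cells.

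**Figure D3:**
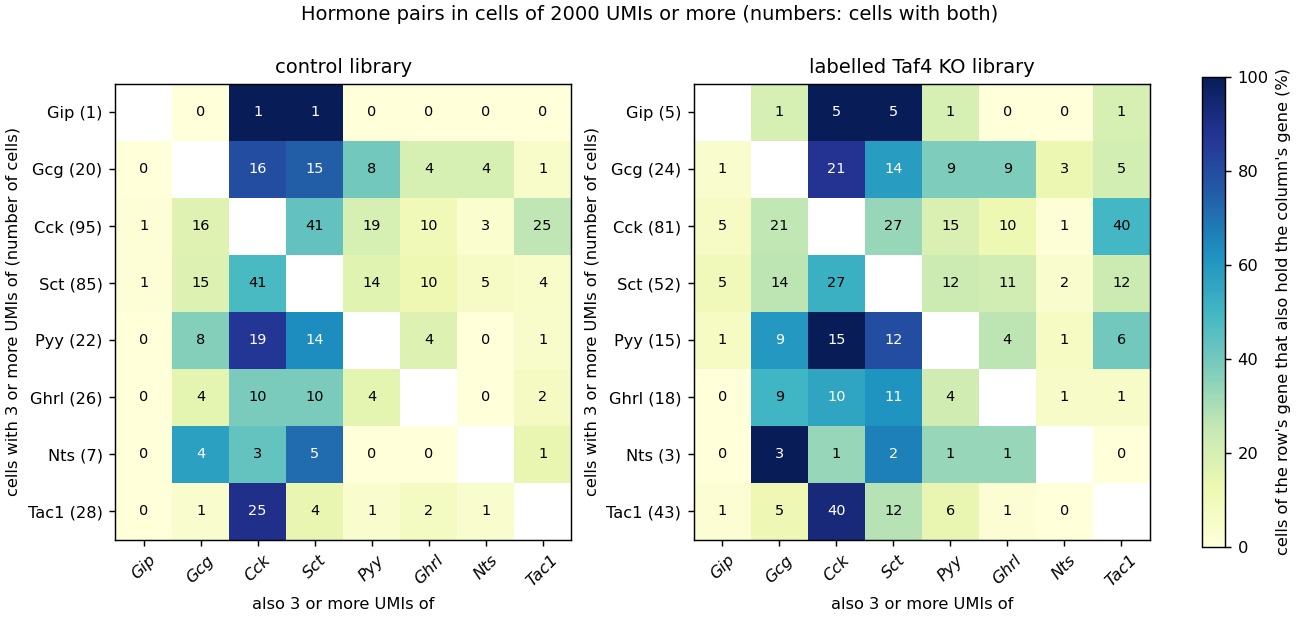
Cells of at least 2000 UMIs with at least 3 UMIs of both genes of a pair, in the control (left) and in the library labelled *Taf4* KO (right); numbers are cells, and the colour is the percentage of the row gene's cells (their number in parentheses) that also held the column gene. The *Cck* column is dark in the rows of *Gcg*, *Pyy* and *Tac1* in both libraries, with 16 of 20 and 21 of 24 *Gcg* cells.

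Single cells show how far such mixtures went. The control cell with the most *Nts* held 2356 UMIs of it together with 842 of *Sct*, 659 of *Gcg* and 560 of *Cck*, out of 16164. The cell with the most *Pyy* in the library labelled *Taf4* KO held 1673 *Pyy*, 1610 *Cck*, 1334 *Nts*, 285 *Gcg*, 137 *Ghrl* and 72 *Sct* UMIs out of 28377. By contrast, the cell with the most *Nts* there held 4779 *Nts* UMIs and only 39 of *Gcg*, 10 of *Sct* and 1 of *Cck*. The top *Gip* cell held 908 *Gip*, 2850 *Cck* and 55 *Sct* UMIs and no *Gcg*. Scrublet predicted 10 control doublets and 0 in the library labelled *Taf4* KO, and no cell was removed for it. Whether a cell with many hormones was a doublet was not tested.

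Deep cells were then grouped by the member with the most UMIs in the cell, without giving the groups a cell type. *Cck* led 72 control cells and 55 of the library labelled *Taf4* KO, *Sct* led 38 and 24, *Ghrl* 16 and 7, *Gcg* 8 and 5, *Tac1* 9 and 23, *Nts* 7 and 2, *Pyy* 6 and 1, and *Gip* none. Of the 156 and 117 cells led by a single member, the share led by *Tac1* was 5.77% (2.67 to 10.7) in the control against 19.7% (12.9 to 28.0) in the other library. Counted once per set, *Cck* led 61 and 47 cells and *Tac1* 8 and 20, or 5.56% (2.43 to 10.7) and 19.0% (12.0 to 27.9), and *Gcg* led 8 and 4. In *Gcg*-led cells the hormone genes together were 7.0% and 10.2% of all UMIs. In *Sct*-led cells they were 0.0673% and 0.0562%. Values below are UMIs per 10000 summed over the cells of a group, the control first, and these cells of 1 library are not replicates.

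Cells led by *Tac1* had the highest *Chgb* and *Chga* of the groups in both libraries, and they held *Tph1*. Their *Chgb* level was 275 (263 to 287) and 226 (220 to 231), and their *Chga* level 122 and 67.4. *Tph1* stood at 7.69 (5.84 to 9.94) and 7.54 (6.59 to 8.59) in them, at 2.33 and 1.46 in *Cck*-led cells, and at 0 UMIs in *Gcg*-led, *Ghrl*-led and *Nts*-led cells of both libraries. *Ffar1*, a fatty acid receptor, and *Isl1*, a transcription factor of endocrine cells, had 0 UMIs in *Tac1*-led cells of both libraries, with upper limits of 0.489 and 0.123.

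Cells led by *Gcg* had high *Scg2*, at 8.00 (6.53 to 9.70) and 8.93 (7.04 to 11.2), against 0.0549 and 0.328 in all other deep cells. *Etv1*, a transcription factor, was at 4.19 and 6.93 in them, and *Ffar1* at 1.86 and 3.17. In *Nts*-led cells *Scg2* was at 4.42 and 6.77 and *Etv1* at 3.51 and 4.58. *Pyy*-led cells had *Cpe* at 13.2 and 13.4, *Isl1* at 4.13 and 2.11 and *Neurod1*, a late endocrine transcription factor, at 5.46 and 7.40, the latter from 1 cell.

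Cells led by *Ghrl* held *Chga* but little *Chgb*. *Chga* was at 22.5 and 27.9 and was found with at least 3 UMIs in 13 of 16 and 7 of 7 cells, whereas *Chgb* was at 0.843 (0.482 to 1.37) and 0.308 (0.0840 to 0.790). *Scg2* had 0 UMIs in these cells of both libraries, with upper limits of 0.194 and 0.284. The transcription factors *Isl1* (5.58 and 4.70) and *Nkx2-2* (3.06 and 3.93) were among the list genes with the highest folds over other deep control cells. *Mboat4*, which acylates ghrelin, was at 0.790 (0.442 to 1.30) in the control against 3.39 (2.47 to 4.56) in the library labelled *Taf4* KO. *Neurog3*, the gene of endocrine precursors, was at 2.74 and 7.94. Of the 16 and 7 cells, 12 and 7 held no other member at 3 UMIs.

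Cells led by *Sct* carried genes of Paneth and goblet cells. They held few *Sct* UMIs, with medians of 5 and 4, and 36 of 38 and 22 of 24 held no other member at 3 UMIs. The Paneth cell defensins *Defa24* (175 and 161) and *Defa17* (12.9 and 15.9) and the angiogenin *Ang4* (25.1 and 87.1) had the highest folds, with *Defa24* at 8.92 and 20.7 in the other deep cells. *Lyz1*, the Paneth cell lysozyme, was at 34.2 and 113, and the goblet cell gene *Tff3* at 139 and 297. *Defa24* was found with at least 3 UMIs in 16 of 38 and 14 of 24 of the cells. *Chgb* was at 12.8 and 18.9, found in 8 and 5 of them. The part of Paneth and goblet cells in the *Sct* counts was not tested. Among the *Apoa1*-high cells, 0 of 132 and 0 of 124 had 3 *Sct* UMIs, which allows shares of up to 2.27% and 2.42% with a floor of 3 counts (exact upper limits 2.76% and 2.93%).

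**Figure D4:**
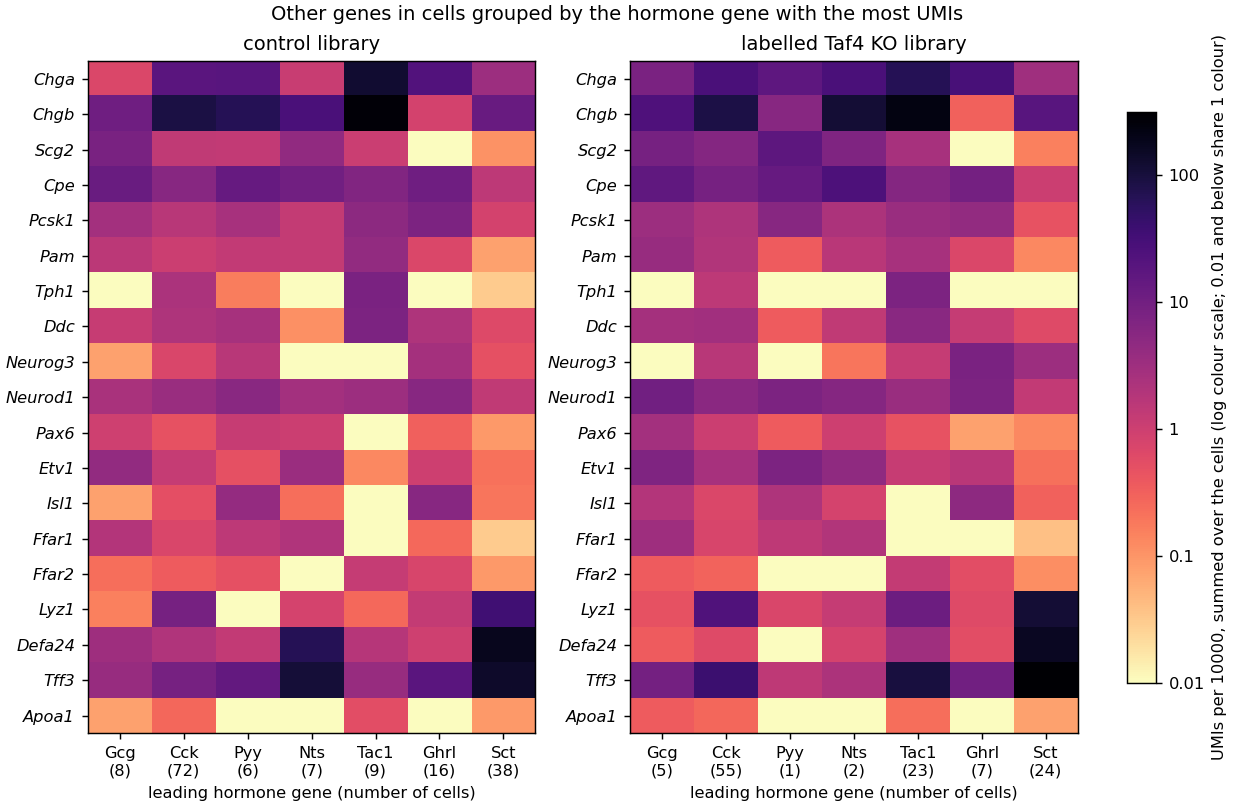
UMIs per 10000, summed over cells of at least 2000 UMIs grouped by the hormone gene with the most UMIs (columns, with the number of cells), for genes of the fixed lists (rows) in both libraries, on a log colour scale in which 0.01 and below share 1 colour. *Tph1* was darkest in the *Tac1* column (7.69 and 7.54), *Scg2* was at 0 in the *Ghrl* column, and *Defa24* was darkest in the *Sct* column (175 and 161).

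Several endocrine genes of the other lists were also concentrated in the hormone cells, and others of the same lists were not. Of all *Chgb* UMIs in a library, 89.7% in the control and 92.4% in the library labelled *Taf4* KO lay in the deep hormone cells, as did 95.68% and 94.99% of *Scg2*, 91.7% and 95.4% of *Tph1* and 93.4% and 93.7% of *Ffar1*. *Pcsk1* was less confined, with 48.8% and 62.4%. Of *Neurog3* only 11.7% and 28.6% lay there. The shares were 25.8% and 45.8% for *Ddc* and 2.79% and 4.83% for *Slc6a4* of the serotonin genes. They were 10.9% and 22.5% for *Ffar4*, 8.65% and 22.2% for *Cpd* and 5.12% and 14.7% for *Sox4*. Within these cells *Chgb* was at 54.4 and 73.8 UMIs per 10000, against 0.278 and 0.398 in the other deep cells. *Neurog3* was at 0.743 and 2.39 within them, against 0.316 and 0.625 in the other deep cells.

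Summed over the libraries, most endocrine lists were higher in the library labelled *Taf4* KO. Over all 10002 genes compared, 5.52% were above 2-fold higher and 3.48% above 2-fold lower, shares that apply to each list below. Of the granule and processing genes 6 of 10 tested were above 2-fold higher and 0 lower, with a median log2 ratio of 1.23 beside 0.16 over all genes. The highest were *Pcsk1n* (2.84), an inhibitor of the convertase, *Scg2* (2.15) and *Ptprn2* (1.63), and the lowest *Pcsk1* (0.36), *Tpst2* (0.36) and *Cpd* (0.41). Of the endocrine transcription factors 6 of 17 were above 2-fold higher and 0 lower (median 0.80), from *Fev* (1.48), *Pax6* (1.48) and *Etv1* (1.40) to *Foxa2* (-0.20), *Foxa1* (-0.28) and *Sox4* (-0.53). Of the serotonin genes 2 of 5 were above 2-fold higher (median 0.73), and of the nutrient and bile acid sensors 2 of 5 (median 0.56). Those 2 were the glucose and peptide transporters *Slc5a1* (1.27) and *Slc15a1* (1.01), and 5.87% and 5.13% of *Slc5a1* UMIs lay in deep hormone cells, whereas the fatty acid receptors *Ffar1*, *Ffar2* and *Ffar4* were at 0.56, 0.38 and 0.26. Of the other peptide genes 3 of 4 were above 2-fold higher, namely *Iapp* (1.93), *Guca2a* (1.5) and *Guca2b* (1.21), whereas *Nucb2* was at 0.17. *Guca2a* and *Guca2b* are guanylin peptides made by other epithelial cells too, and 11.3% and 3.76% of their control UMIs lay in hormone cells. None of the 22 receptors of the members had 200 UMIs, and only 8 of them were listed among the counted genes. Of those listed, *Ntsr2* had 0 UMIs in the control and *Sstr3* had 0 in the library labelled *Taf4* KO.

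Paneth, goblet and most enterocyte genes were higher in the library labelled *Taf4* KO as well. All 6 Paneth genes were above 2-fold higher, with a summed level of 18.1 and 57.8 UMIs per 10000. The 6 goblet genes were so too, at 28.6 and 81.5, and 5 of 7 enterocyte genes, at 16.4 and 35.9. The enterocyte gene *Apoa4* was lower, at 2.42 in the control against 1.49, a log2 ratio of -0.70 (-0.75 to -0.64). Of 6 stem cell genes 0 were above 2-fold higher and 1, *Ascl2*, was above 2-fold lower, at 13.99 and 9.09 in sum. The shares over all genes were 5.52% higher and 3.48% lower. Immune genes summed to 0.0260 and 0.0408, and fibroblast, neuron and glia genes to 0.0426 and 0.158. The part of these other cells in the hormone levels was not tested.

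Across single cells, each member but *Gip* had genes that varied with it in both libraries. The measure was Pearson's r of log1p UMIs per 10000 over 2119 and 921 deep cells, as a description of cells that share a library and differ in depth, and the lower of both values is given. Each member was compared with 9994 genes, from which the other members were left out. *Tac1* was most like *Tph1* (0.83), the sodium channel gene *Scn3a* (0.77) and *Cwh43* (0.76). *Cck* was most like *Chgb* (0.64), *Cpe* (0.63) and *Scg2* (0.60), and *Sct* was most like *Etv1* (0.63), *Cpe* (0.62) and *Gfra3* (0.61). *Gcg* was most like *Scg2* (0.59), *Ffar1* (0.57) and *Etv1* (0.55), and *Pyy* was most like *Ffar1* (0.56), *Scg2* (0.48) and *Etv1* (0.45). Among the genes most like *Ghrl* were *Scgn* (0.54) and *Peg3* (0.50), neither of which was among the closest genes of another member. *Nts* had *Serpina1e* (0.38) and *Bcam* (0.34).

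*Gip*, *Cck* and *Tac1* were above 2-fold higher under each way of counting that gave a ratio, and the other members were not. Without the 10 highest cells of each gene, *Cck*, *Tac1* and *Gcg* were above 2-fold higher (2.02, 1.98 and 1.69), and *Gip* gave no ratio because the control was then at 0. With every cell weighted equally the ratios were 6.78 for *Gip*, 1.52 for *Cck*, 1.17 for *Ghrl* and 1.10 for *Tac1*, and lay between -0.49 (*Sct*) and 0.72 (*Gcg*) for the rest.

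**Figure D5:**
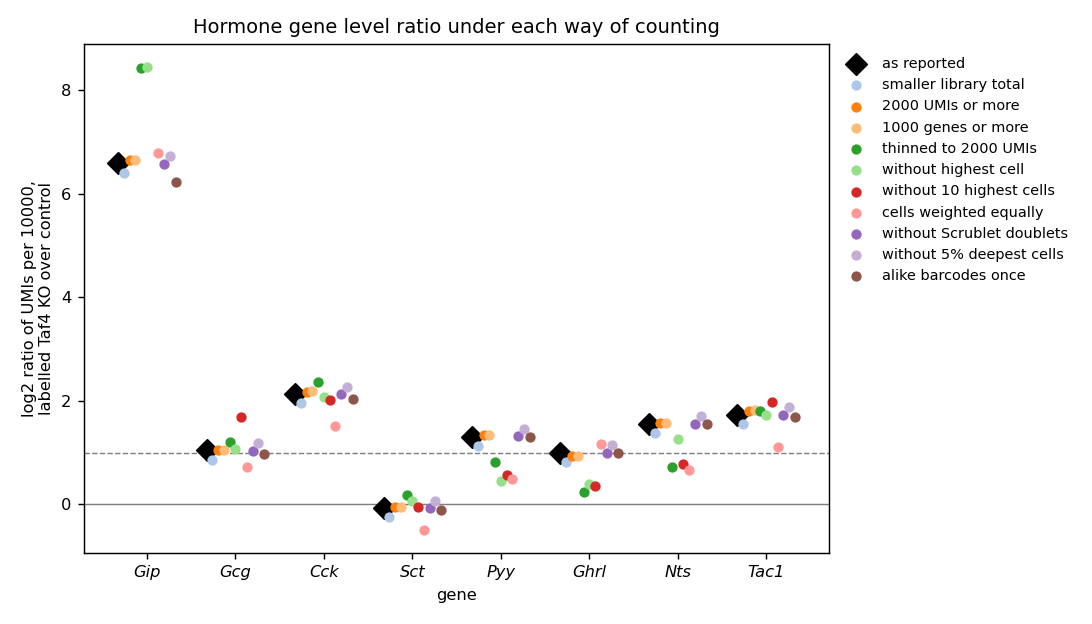
Log2 ratio of UMIs per 10000, library labelled *Taf4* KO over control, for each hormone gene as reported (black diamonds) and under each other way of counting (coloured points); the dashed line is 2-fold and the solid line no difference. *Gip*, *Cck* and *Tac1* stayed above the dashed line throughout, whereas *Ghrl* ranged from 0.24 to 1.17 and *Pyy* from 0.45 to 1.45.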

How the data were processed

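Enteroid cells of 1 control and 1 library labelled *Taf4* KO were measured by 3′ single-cell RNA-seq. The authors deposited a table of raw UMI counts for each library. Per the labels and the methods of the study, the authors used bcl2fastq 2.17.1.14, Cell Ranger 3.1 with mm10, and Seurat 3.1.4, and filtered on 200 to 6000 genes and on a mitochondrial share below 15%, limits that every deposited cell meets.

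From these counts, UMIs were summed per library and given per 10000 UMIs, with exact Poisson intervals. Log2 ratios have exact conditional binomial intervals, and shares Clopper-Pearson intervals. Intervals for differences of shares combine the Clopper-Pearson intervals of both shares by Newcombe's square-and-add rule. A cell held a hormone from 3 UMIs. Pairs and groups used cells of at least 2000 UMIs, and thinning drew 2000 UMIs per cell, leaving out the 444 control cells and 890 cells of the library labelled *Taf4* KO below that depth. Ratios were compared over genes whose UMIs summed to at least 200. Gene coordinates and promoters came from RefSeq tables of GRCm38, and 8 of 8 members were found by name. The start sites of *Gip* and *Sct* differed between the gene coordinates and the promoters. The reference genome of another build was not used.

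The members and lists were chosen with earlier results of these data known. Named genes were the members, *Taf4*, the 3 highest and 3 lowest ratios of each list, the 3 list genes with the highest fold in each group of hormone cells, and the 3 genes most like each member where r was at least 0.3. Genes outside this rule, such as *Mboat4*, *Neurog3*, *Lyz1* and *Tff3*, and the other list genes given or drawn for a group, were chosen after their values were seen. A gene that the rule names is not reported here. Alternatives changed the library total, the depth or gene minimum, the UMI threshold, the weight of single cells, the doublets and the counting of alike barcodes. The log2 ratio intervals were tested on simulated Poisson gene totals, a setting that leaves out the gathering of UMIs in few cells. Python 3.11.15, numpy 2.4.6, scipy 1.17.1, pandas 2.3.3, Scrublet in scanpy 1.11.5 and matplotlib 3.10.9 were used.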

Additional observations from a re-analysis of the deposited data

How the results depend on the processing

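The count of 7 members above 2-fold higher in the library labelled *Taf4* KO was 4 with cells thinned to 2000 UMIs, 3 without the 10 highest cells of each gene and 4 with every cell weighted equally. It stayed between 5 and 7 under the other 7 alternatives, and the count above 2-fold lower was 0 under all 10. The difference in the share of cells with a hormone, 1.51 percentage points, was 3.84 from 2 UMIs, 5.20 in cells of at least 2000 UMIs, 5.27 in cells of at least 1000 genes and 4.52 after thinning. For the share of hormone cells with 2 or more members, the difference ranged from 6.94 to 19.1 points over 8 alternatives. It was 19.1 (5.51 to 31.7) from 5 UMIs and 18.1 (2.90 to 32.3) from 10 UMIs. Under the other alternatives its interval spanned 0. For each value that moved, the cause was not tested. Of the single members, *Sct* had a ratio above 0 under 3 of 10 alternatives, and the others were above 0 under all that gave a value. Counting alike barcodes once was chosen after seeing the data. Over all barcodes it took the difference in the share of *Gcg* cells from 0.24 to -0.14 points, and in cells of at least 2000 UMIs from 1.66 to 0.92 points.

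No paired analysis was possible because there was 1 library per condition. With no replicates, differences between libraries and between conditions cannot be told apart. Depth per cell limits the shares, since 49.1% of barcodes of the library labelled *Taf4* KO had under 2000 UMIs. The level ratios of *Gip*, *Nts*, *Pyy* and *Ghrl* rest on few cells, and intervals cover counting error only.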
